A study of Mus musculus with 24 samples.

Results

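The 41 interferon response genes described here were taken by symbol from a table of 51912 mouse genes measured in whole lung, and each symbol was found once in that table. They comprised 5 transcription regulators (Stat2, Irf1, Irf7, Irf9, Nlrc5), 5 sensors of foreign nucleic acid and their partners (Ifih1, Dhx58, Eif2ak2, Zbp1, Trim25), 5 members of the oligoadenylate synthetase family (Oas1a, Oas2, Oas3, Oasl1, Oasl2), the ubiquitin-like modifier Isg15 and its protease Usp18, 13 other effectors, 6 interferon-induced GTPases, 4 genes of class I antigen presentation and the chemokine Cxcl10. All 41 had counts in the libraries, with 10 of them under 1 CPM on average in E16 controls. CPM give the counts of a gene out of 1 M counts of its library, with library totals adjusted by TMM factors of 0.892 to 1.05.

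Interferons are cytokines that cells release on sensing viral or misplaced nucleic acid. Type I and type III interferons act through a complex with STAT2 and IRF9, which binds the interferon-stimulated response element (ISRE), whereas interferon gamma acts mainly through the gamma-activated site (GAS). The target genes restrict viral RNA, cut or sense it, load peptides on class I molecules and recruit immune cells. Most are kept at a low basal level in resting tissue, and in lung they are known mainly from infection.

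The mice carried floxed alleles of Sin3a, whose protein holds together a corepressor with histone deacetylases, in a series titled as a deletion in the mesenchyme. All 24 titles name Tbx4rtta and tetocre, a doxycycline-dependent transactivator under Tbx4 control and a Cre under a tetO promoter, so the controls carried both transgenes as well, and all dams were fed doxycycline from embryonic day 12. There were 4 control and 4 conditional knockout (CKO) lungs at embryonic day 16 (E16), at birth (P0) and at postnatal day 3 (P3). By title the controls were Sin3a F/+ at E16 and P0 but Sin3a F/F at P3, and the CKO lungs were Sin3a F/F at all 3 stages, so the P3 groups were told apart by the words control and CKO alone. Tbx4 control is used to drive Cre in lung mesenchyme, so that by design Sin3a would be left in place in the other cells of a CKO lung. In which cells it was deleted was not tested. Sin3a itself, counted over the whole gene, spanned 125 to 141 CPM in E16 controls and 105 to 144 CPM in E16 CKO lungs, with overlap at P0 and P3 too, and therefore does not check the labels. Markers of lung epithelium were abundant throughout, with Sftpc, the gene of surfactant protein C, averaging 3212 CPM in E16 controls and 9777 CPM in P0 controls. Depth was 27.02 to 36.35 M counts per library. The labels speak of library making stage by stage and give no batches, so that a difference in preparation between stages cannot be told apart from stage. At P0, control replicate 3 and CKO replicate 1 had 2173 and 1638 CPM summed over markers of T cells and thymus, where the other 6 libraries had 5.35 to 16.3 CPM, and results that rest on these libraries are given without them as well.

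The promoters of the members were looked up to show the letters through which interferon signals are read. RefSeq windows from 250 bases before to 50 bases after a transcription start (GRCm38.p6) were held for 32 members, while Oas2, Usp18, Dhx58, Rtp4, Parp9, Parp14, Zbp1, Nlrc5 and Iigp1 had none. The ISRE core, searched as TTTC, any 2 bases and TTTC again on both strands, was present in 18 of the 32 (56.2%) and in 3.99% of all 27025 genes with a window. A GAS, searched as TTCNNNGAA, which reads the same on both strands, was present in 9 of the 32 (28.1%) and in 9.55% of all genes. Both were found in 5 members and neither in 10. A GAS may overlap an ISRE core, and a match is a run of letters and no more.

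Whole windows are shown for 4 of the 6 members that differed between CKO and control lungs over the 3 stages, Gbp2, Gbp7, Bst2 and Ifit1, since each holds the core. Of the other 2, Parp9 had no window and Ifit2 had windows without it. Each is printed 5′ to 3′ on the strand of its gene, with the ISRE core in capitals. Gbp2 lies at chr3:142620413-142620712 (plus strand), Gbp7 at chr3:142530086-142530385 (plus strand), Bst2 at chr8:71537423-71537722 (minus strand) and Ifit1 at chr19:34640639-34640938 (plus strand).
Gbp2: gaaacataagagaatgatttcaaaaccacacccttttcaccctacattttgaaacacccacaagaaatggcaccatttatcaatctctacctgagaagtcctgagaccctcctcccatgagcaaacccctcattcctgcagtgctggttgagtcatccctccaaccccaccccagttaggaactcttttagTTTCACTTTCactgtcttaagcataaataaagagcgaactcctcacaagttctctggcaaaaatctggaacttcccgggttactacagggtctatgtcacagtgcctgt
Gbp7: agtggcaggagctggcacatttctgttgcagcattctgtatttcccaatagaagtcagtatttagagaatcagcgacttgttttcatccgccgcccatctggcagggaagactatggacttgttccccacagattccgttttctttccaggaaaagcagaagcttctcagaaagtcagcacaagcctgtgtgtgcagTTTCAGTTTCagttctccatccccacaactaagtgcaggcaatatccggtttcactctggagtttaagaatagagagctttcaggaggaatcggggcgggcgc
Bst2: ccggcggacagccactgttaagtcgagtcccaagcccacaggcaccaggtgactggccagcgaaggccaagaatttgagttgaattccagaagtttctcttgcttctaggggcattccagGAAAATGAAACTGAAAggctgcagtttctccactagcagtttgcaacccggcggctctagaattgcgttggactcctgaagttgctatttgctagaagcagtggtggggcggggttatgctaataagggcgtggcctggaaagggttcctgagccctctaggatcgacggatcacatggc
Ifit1: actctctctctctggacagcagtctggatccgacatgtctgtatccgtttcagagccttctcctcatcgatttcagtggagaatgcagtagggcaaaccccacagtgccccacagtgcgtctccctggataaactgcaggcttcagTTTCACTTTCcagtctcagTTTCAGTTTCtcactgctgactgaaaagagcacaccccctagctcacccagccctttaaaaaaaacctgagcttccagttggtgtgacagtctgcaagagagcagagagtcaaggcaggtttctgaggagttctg
In Gbp2, Gbp7 and Ifit1 the core read on the strand of the gene. In Bst2 a pair of overlapping cores read on the opposite strand. Ifit1 held a pair of separate cores, and Gbp7 held 2 GAS matches beside its core.

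Stretches of 30 bases around the core are shown for 6 more members, to set their cores side by side. Each is printed with 1 core reading 5′ to 3′ in capitals, on the strand that holds it. Isg15 is at chr4:156200871-156200900 (plus strand), Stat2 at chr10:128270266-128270295 (plus strand), Igtp at chr11:58199512-58199541 (minus strand), B2m at chr2:122147538-122147567 (minus strand), Cxcl10 at chr5:92349083-92349112 (plus strand) and Ifit3 at chr19:34583397-34583426 (plus strand).
Isg15: ctattttctgTTTCGGTTTCcttttcctac
Stat2: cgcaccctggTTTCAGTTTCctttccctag
Igtp: cccgaacagcTTTCAGTTTCagttcctaga
B2m: actttcccatTTTCAGTTTCatgttcttat
Cxcl10: gtgaggtaagTTTCACTTTCcaaagcgtga
Ifit3: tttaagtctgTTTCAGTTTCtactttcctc
The same core letters TTTCAGTTTC stand in Stat2, Igtp, B2m, Ifit3 and Gbp7, while Gbp2 and Cxcl10 share TTTCACTTTC. Isg15 held 3 overlapping cores, the most of any member, of which the middle one is in capitals, and the other core of Ifit3 lies outside the stretch shown. Psmb9 and Tap1, neighbours on chromosome 17 that are read in opposite directions, shared 275 bases of their windows.

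Levels differed widely among the members. Per kilobase of merged exons, B2m, the light chain of class I molecules, had the highest level in all 6 groups, from a mean of 101 CPM per kb in E16 controls to 192 CPM per kb in P3 controls. At the other end were Cxcl10 in E16 controls, with 0.00632 CPM per kb, and Oas3 in the other 5 groups. The median member stood at 1.18, 3.76 and 3.21 CPM per kb in controls at E16, P0 and P3, and at 1.04, 2.83 and 2.94 CPM per kb in CKO lungs. In E16 controls B2m was followed by Iigp1, a GTPase that attacks vacuoles holding parasites, and Trim25, a ubiquitin ligase of RNA sensing, at 18.8 and 14.1 CPM per kb.

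**Figure D1:**
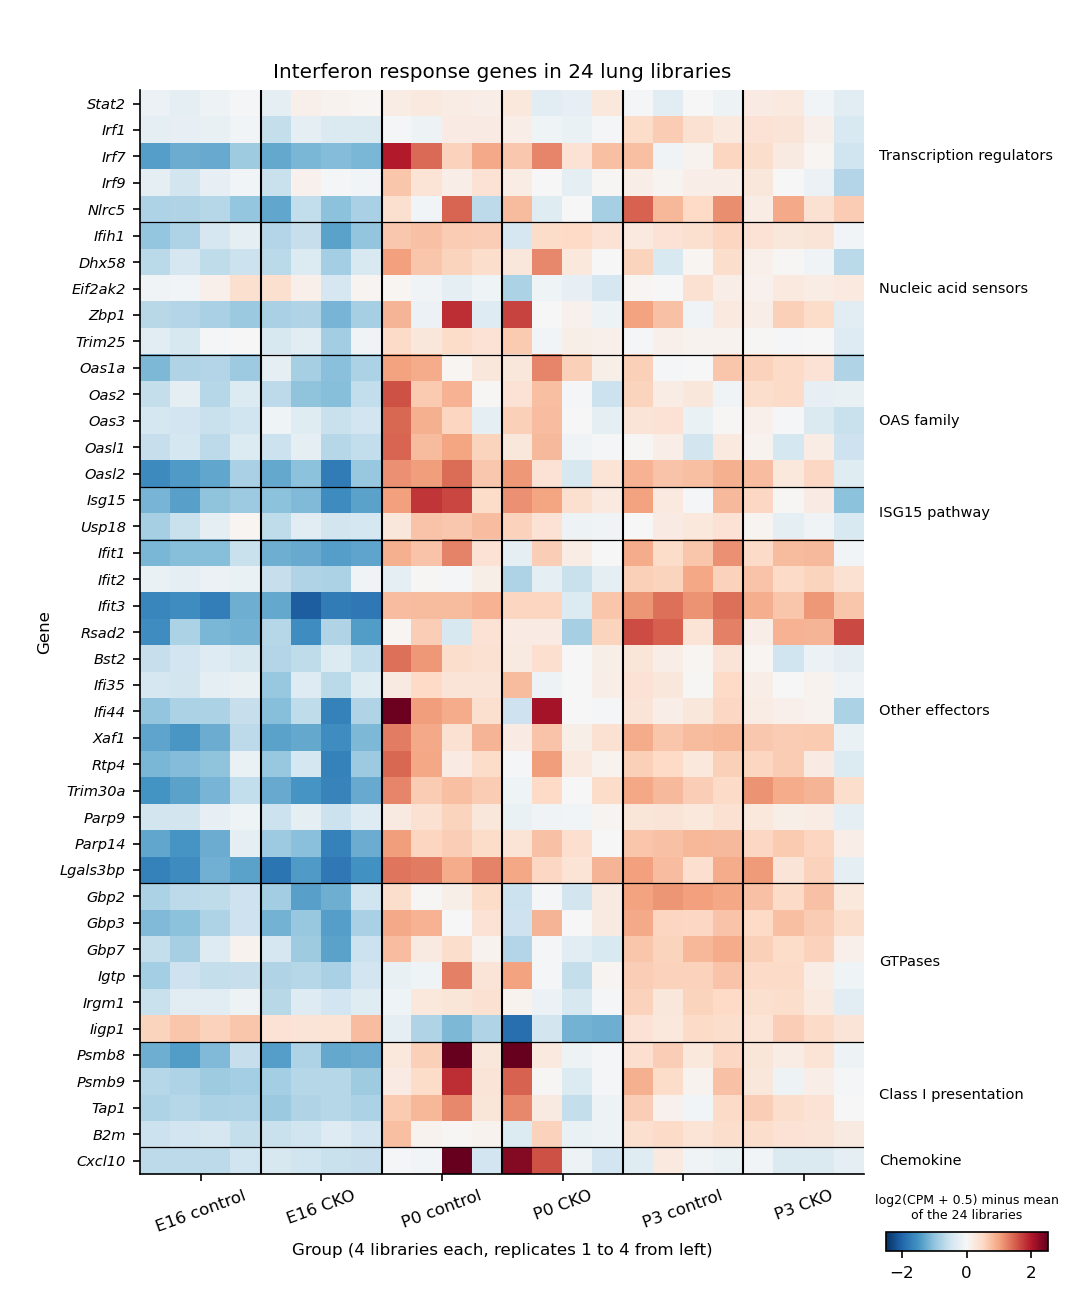
Level of each of the 41 interferon response genes (rows, by role) in each of the 24 libraries (columns, replicates 1 to 4 of 6 groups), as log2(CPM + 0.5) minus the mean of all 24 libraries, red above and blue below that mean, with the colour saturated at the ends of the scale. Most rows turn from blue to red between E16 and P0, Iigp1 does the reverse, and single P0 libraries stand out in Psmb8, Psmb9, Cxcl10 and Ifi44.

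Between E16 and birth most of these genes rose in control lungs. Of the 41 members, 38 were called at an adjusted p under 0.05, where 47.7% of all 18415 genes tested were called in either direction. There were 37 higher at P0, against 25.3% of all genes, and Iigp1 was the 1 member lower, against 22.3% of all genes. The median log2 fold change of the members was 1.60, and that of all genes 0.0513. All 4 P0 controls lay above all 4 E16 controls in 37 members, which was so in 20.7% of genes. In RNA of a whole organ, more cells of a type and more RNA per cell cannot be told apart.

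Among the regulators, Irf7, the factor that amplifies interferon production, stood at 1.51, 1.72, 1.68 and 2.34 CPM in the 4 E16 controls and at 20.04, 13.5, 7.33 and 9.56 CPM in the 4 P0 controls. Every P0 library was above every E16 library, and the log2 fold change was 2.79 ± 0.30 (SE) with an adjusted p of 2.43e-07 (edgeR quasi-likelihood test, Benjamini-Hochberg adjustment, used throughout). Values given with ± in parentheses below are log2 fold changes with their SE. Stat2, which carries the type I signal to DNA, changed least among the risers, from 32.9, 31.1, 33.6 and 35.6 CPM to 41.9, 43.5, 41.4 and 41.4 CPM. The groups did not overlap, but the log2 fold change was 0.33 ± 0.13 (adjusted p 0.0485). The call was lost whichever E16 or P0 control was left out. Of the 24 fits that each left out 1 library 7 kept it, all without a library of other groups. Irf9, the DNA-binding partner of STAT2, rose by 0.63 ± 0.17 on the log2 scale, and Nlrc5, the activator of class I genes, by 2.40 ± 0.63, or by 1.59 without the pair rich in thymus markers, and was still called. Irf1, an early target of interferon gamma, went from 39.5 ± 2.03 to 46.4 ± 5.56 CPM (SD, n = 4) and was not called, with a log2 fold change of 0.22 ± 0.13 and an adjusted p of 0.181. Over the 3 stages Irf9 averaged 24.8, 38.7 and 32.2 CPM in controls and 26.8, 29.3 and 27.3 CPM in CKO lungs, and Irf1 39.5, 46.4 and 60.3 CPM and 34.0, 43.5 and 48.8 CPM.

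Of the sensors, 4 of 5 rose. Zbp1, which senses left-handed nucleic acid and can start cell death, went from 0.185, 0.172, 0.134 and 0.0854 CPM to 1.51, 0.502, 3.49 and 0.392 CPM, a log2 fold change of 3.31 ± 0.75 (adjusted p 0.00107). The P0 libraries were all above the E16 libraries but spread widely, with replicate 3, one of the pair rich in thymus markers, highest. Without that pair of libraries the log2 fold change was 2.43 and was still called. Ifih1, the sensor MDA5 of long double-stranded RNA, averaged 7.33, 17.98 and 14.8 CPM in controls at E16, P0 and P3 and 5.84, 13.5 and 13.2 CPM in CKO lungs. Dhx58, the related helicase LGP2, averaged 1.64, 4.65 and 3.16 CPM in controls and 1.67, 4.04 and 2.42 CPM in CKO lungs, and Trim25 81.4, 121 and 96.4 CPM in controls and 70.4, 109 and 87.0 CPM in CKO lungs. At birth these 3 rose by 1.29 ± 0.20, 1.49 ± 0.29 and 0.56 ± 0.15 on the log2 scale in controls. Eif2ak2, the kinase PKR that halts translation on double-stranded RNA, was not called, at 49.8 ± 8.42 CPM in E16 and 43.2 ± 3.65 CPM in P0 controls (SD, n = 4), with a log2 fold change of -0.21 ± 0.16 and an adjusted p of 0.28. At P3 Eif2ak2 averaged 51.4 CPM in controls, and Zbp1 1.11 CPM in controls and 0.843 CPM in CKO lungs.

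All 5 genes of the OAS family, which make an antiviral second messenger or resemble its makers, rose, with a median log2 fold change of 2.46. Oas3 went from 0.0792, 0.0688, 0.0335 and 0.0570 CPM to 1.64, 0.968, 0.649 and 0.163 CPM, a log2 fold change of 3.73 ± 0.75 (adjusted p 0.000333). All P0 libraries were above all E16 libraries, although Oas3 was near 0 at E16 and its P0 values spanned a wide range. Oasl2, an OAS-like protein, went from 3.06, 3.51, 3.89 and 5.61 CPM to 23.3, 21.7, 27.8 and 16.5 CPM, without overlap (2.46 ± 0.29). Oas1a averaged 0.535, 2.42 and 1.91 CPM in controls at the 3 stages and 0.672, 2.42 and 1.75 CPM in CKO lungs, and its log2 fold change at birth in controls was 2.17 ± 0.42. Oas2 rose by 1.83 ± 0.41 and Oasl1 by 2.56 ± 0.44. The CKO lungs averaged 0.469, 1.49 and 1.42 CPM of Oas2 and 0.272, 0.850 and 0.503 CPM of Oasl1 at the 3 stages, and the controls 0.747, 2.68 and 1.54 CPM and 0.280, 1.68 and 0.616 CPM. At P3 Oas3 averaged 0.375 CPM in controls and 0.191 CPM in CKO lungs, and Oasl2 18.3 CPM and 13.3 CPM. Oas1a has close copies in the mouse genome, between which the counting divides shared reads by estimate, as it does for Oasl1 and Oasl2, Ifit3 and Ifit3b, the Gbp genes and Trim30a, so that their levels are less certain.

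Isg15, a ubiquitin-like protein that is attached to other proteins, showed one of the largest rises, from 0.343, 0.241, 0.436 and 0.513 CPM to 3.36, 5.99, 5.54 and 2.09 CPM. Every P0 control was above every E16 control, and the log2 fold change was 3.44 ± 0.48 (adjusted p 5.61e-06). Usp18, which removes Isg15 and damps the receptor, averaged 4.66, 9.69 and 7.21 CPM in controls and 4.37, 7.13 and 5.49 CPM in CKO lungs over the 3 stages and rose by 1.05 ± 0.21 on the log2 scale at birth.

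Of the 13 other effectors, 12 rose. Ifit1, which binds viral RNA with foreign 5′ ends, went from 0.132, 0.172, 0.168 and 0.456 CPM to 2.09, 1.79, 2.79 and 1.31 CPM (3.07 ± 0.41, adjusted p 3.25e-06). Ifit3, its partner, went from 0.502, 0.550, 0.436 and 0.826 CPM to 4.83, 4.88, 4.84 and 5.16 CPM (3.07 ± 0.30, adjusted p 5.91e-08). Neither gene overlapped between the stages, and the P0 controls were closely grouped for Ifit3. Ifit2, from the same cluster on chromosome 19, was not called, at 25.7, 24.7, 26.1 and 25.9 CPM and 24.3, 29.4, 28.6 and 32.04 CPM, a log2 fold change of 0.15 ± 0.16 (adjusted p 0.46). Lgals3bp, a secreted glycoprotein, had the smallest p of all members, with 5.62, 6.16, 8.08 and 7.29 CPM at E16 and 49.5, 48.0, 37.2 and 46.1 CPM at P0 (2.73 ± 0.23, adjusted p 8.36e-09). Its lowest P0 library was several times its highest E16 library.

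The other 9 effectors rose by less than Lgals3bp. Xaf1, a regulator of cell death, averaged 3.40, 15.3 and 14.5 CPM in controls at E16, P0 and P3 and 2.93, 10.6 and 11.4 CPM in CKO lungs. Rtp4, a receptor chaperone that also acts on viruses, averaged 2.504, 8.85 and 6.83 CPM and 2.22, 6.34 and 5.92 CPM, in the same order. The log2 fold changes at birth in controls were 2.16 ± 0.23 for Xaf1 and 1.81 ± 0.36 for Rtp4. Ifi44, a cytoplasmic effector, averaged 1.35, 8.08 and 3.49 CPM in controls and 1.11, 4.99 and 2.57 CPM in CKO lungs, but its P0 values spanned 3.69 to 16.99 CPM in the control group and 1.73 to 12.9 CPM in the CKO group. Ifi35, which forms a complex with Nmi, averaged 15.1, 24.2 and 23.4 CPM in controls and 12.9, 22.7 and 19.5 CPM in CKO lungs. Rises in controls were 2.57 ± 0.55 for Ifi44, 0.67 ± 0.17 for Ifi35, 1.46 ± 0.36 for Rsad2, the enzyme viperin, 1.40 ± 0.20 for Bst2, the tether of budding virions, and 2.09 ± 0.23 for Trim30a, a ubiquitin ligase. The ADP-ribosyltransferases Parp9 and Parp14 rose by 0.67 ± 0.12 and 1.68 ± 0.23. Control levels over the 3 stages averaged 3.43, 9.46 and 20.2 CPM for Rsad2, 5.23, 13.8 and 8.48 CPM for Bst2 and 3.17, 13.6 and 12.6 CPM for Trim30a, and CKO levels 3.67, 8.86 and 16.5, 4.70, 8.40 and 6.27 and 2.49, 8.83 and 13.8 CPM. Parp14 averaged 11.96, 38.7 and 41.1 CPM in controls and 10.2, 31.6 and 33.7 CPM in CKO lungs, and Lgals3bp 33.9 CPM in P3 controls and 27.6 CPM in P3 CKO lungs.

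**Figure D2:**
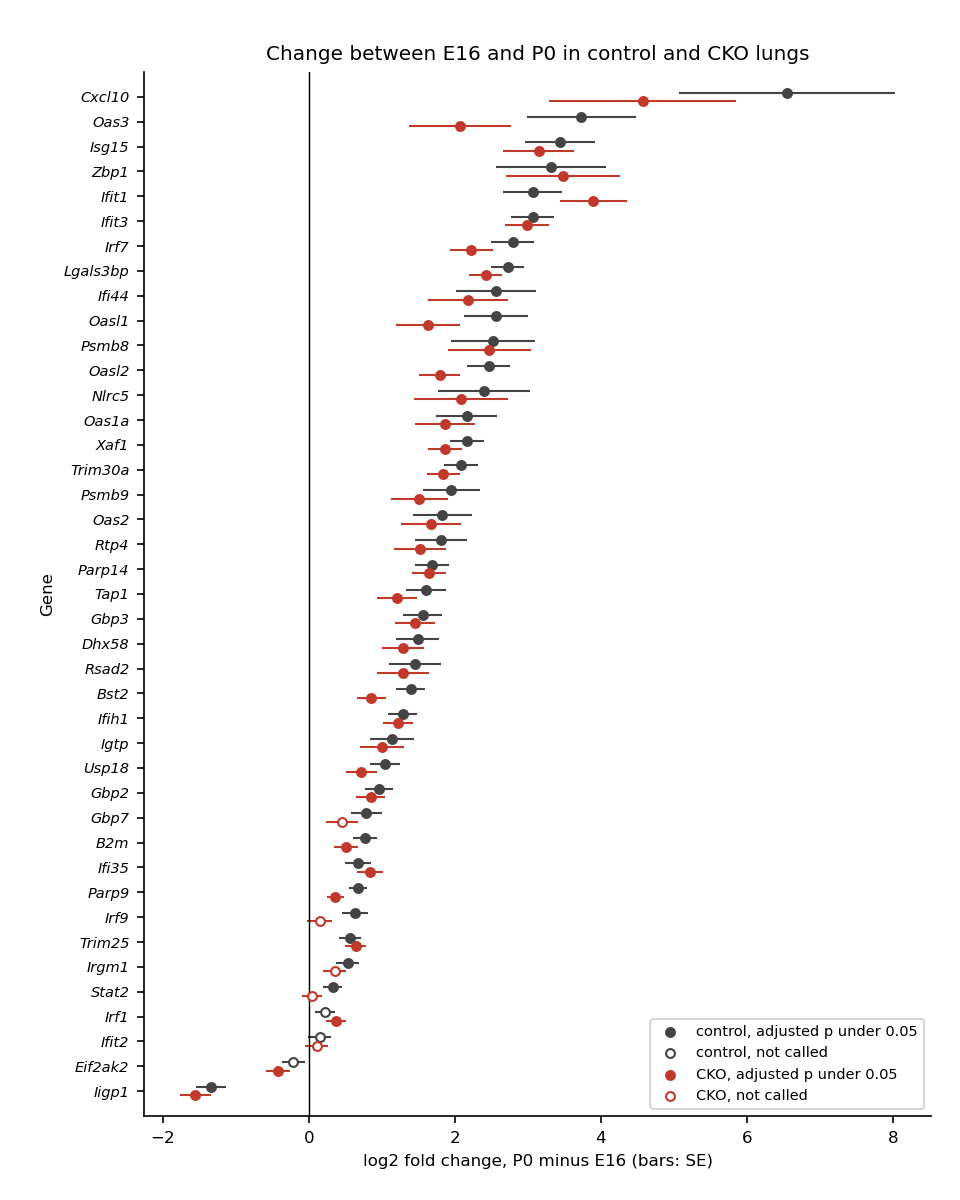
Log2 fold change between E16 and P0 for each member in control lungs (grey) and CKO lungs (red), with SE bars and filled points for an adjusted p under 0.05, from one fit of 24 libraries. Of 41 members, 37 rose in controls and 34 in CKO lungs. Iigp1 and Eif2ak2 lie left of 0 in both, Eif2ak2 without a call in controls.

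The GTPases split. Gbp2, a guanylate-binding protein that coats pathogen vacuoles, went from 6.42, 7.09, 7.28 and 7.95 CPM to 15.8, 11.8, 12.8 and 16.0 CPM (0.96 ± 0.19, adjusted p 0.000366), and Igtp, an immunity-related GTPase, from 4.15, 5.33, 5.03 and 5.10 CPM to 6.85, 7.24, 19.5 and 9.92 CPM (1.14 ± 0.30, adjusted p 0.00379). Both were higher in every P0 control, and Igtp was highest by far in replicate 3, without which and its CKO counterpart the log2 fold change was 0.70 and still called. Gbp3 averaged 3.01, 8.93 and 9.57 CPM in controls and 2.499, 6.77 and 8.90 CPM in CKO lungs, and Irgm1, which keeps the other GTPases off host membranes, 14.99, 21.8 and 26.2 CPM and 13.6, 17.1 and 21.8 CPM. They rose by 1.56 ± 0.27 and 0.53 ± 0.16 at birth in controls, and Gbp7 by 0.79 ± 0.22. Iigp1 went the other way, from 104, 115, 106 and 114 CPM to 59.2, 41.7, 31.96 and 41.4 CPM, a log2 fold change of -1.34 ± 0.21 (adjusted p 2.45e-05). All P0 controls were below all E16 controls.

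All 4 class I genes rose. B2m went from 84.8, 87.9, 92.3 and 81.2 CPM to 208, 131, 126 and 131 CPM (0.77 ± 0.16, adjusted p 0.000575), without overlap. Psmb8, a subunit of the immunoproteasome, went from 3.78, 3.27, 4.12 and 6.21 CPM to 11.4, 14.5, 63.2 and 11.7 CPM (2.52 ± 0.57, adjusted p 0.00109). Replicate 3 of P0 stood several-fold above the other 3 P0 controls, which were themselves above all E16 controls. Without the pair rich in thymus markers the log2 fold change of Psmb8 was 1.52. Psmb9, the neighbouring immunoproteasome subunit, averaged 1.63, 6.39 and 5.09 CPM in controls over the 3 stages and 1.67, 4.71 and 3.46 CPM in CKO lungs, and Tap1, the peptide transporter, 7.05, 21.6 and 15.4 CPM and 6.89, 15.7 and 16.1 CPM. Their log2 fold changes at birth were 1.95 ± 0.39 and 1.61 ± 0.28 in controls, and 1.36 and 1.43 without the pair, each still called.

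Cxcl10, the chemokine that draws T cells and natural killer cells, was almost absent at E16. The E16 controls held 0, 0, 0 and 2 counts, and the P0 controls stood at 0.274, 0.251, 6.54 and 0.0653 CPM, of which 242 of the 259 counts came from replicate 3. The ratio of summed counts was 137, with an exact 95% interval of 37.5 to 1140 that covers counting error only. Without that library it was 12.8 (3.03 to 114). The fitted log2 fold change of 6.55 ± 1.48 (adjusted p 0.00104) owed its size to 1 library. Without it the value was 3.38 and still called, and Cxcl10 was not tested once the pair rich in thymus markers was left out. In CKO lungs 3.35, 1.86, 0.224 and 0.0682 CPM at P0 stood against 0.0977, 0.0545, 0.0349 and 0.0311 CPM at E16, a ratio of 23.4 (11.1 to 59.1), or 12.3 (5.65 to 31.9) without replicate 1.

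**Figure D3:**
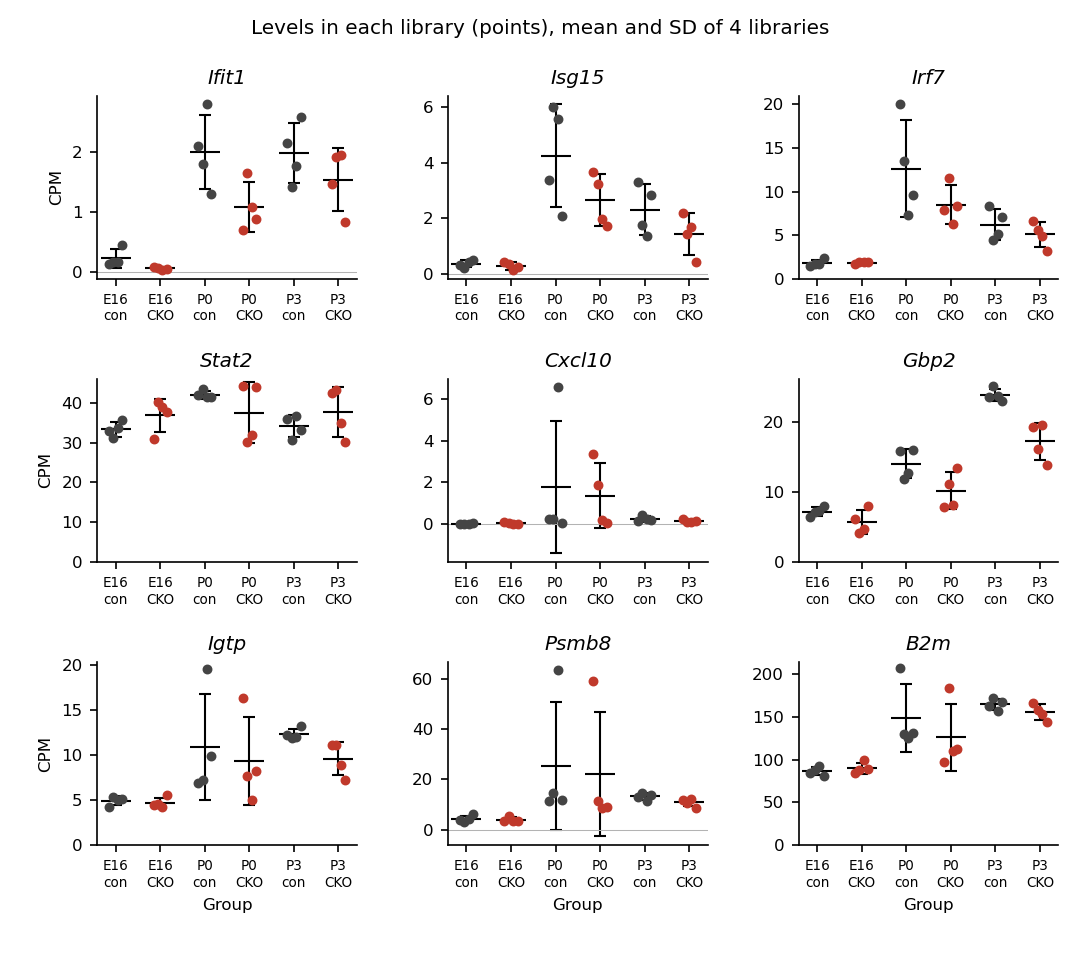
CPM of 9 members from the different roles in each library (points), with the mean and SD of 4 libraries per group (bars), grey for controls and red for CKO lungs. Isg15, Ifit1, Irf7 and B2m are higher on average at P0 than at E16 in both genotypes, and in Cxcl10, Psmb8 and Igtp 1 P0 library of each genotype stands far above most others.

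In CKO lungs the same comparison, whose fold changes rest on other libraries than those of the controls, called 36 members, with 45.4% of all genes called. There were 34 higher (24.7% of all genes) and 2 lower (20.6%), Iigp1 and Eif2ak2, and the median log2 fold change was 1.45. All 4 P0 CKO lungs were above all 4 E16 CKO lungs in 27 members, as in 17.2% of genes. Ifit1 went from 0.0977, 0.0817, 0.0349 and 0.0622 CPM to 0.699, 1.65, 1.09 and 0.887 CPM (3.90 ± 0.46, adjusted p 8.09e-07), and Isg15 from 0.424, 0.381, 0.139 and 0.249 CPM to 3.68, 3.24, 1.99 and 1.74 CPM (3.15 ± 0.48, adjusted p 1.82e-05). Neither overlapped between the stages. Ifit3 went from 0.782, 0.245, 0.418 and 0.404 CPM to 4.01, 4.01, 1.957 and 4.50 CPM (2.99 ± 0.30), and Irf7 from 1.66, 1.88, 1.95 and 1.87 CPM to 7.84, 11.6, 6.23 and 8.32 CPM (2.22 ± 0.29). Both pairs of groups were apart. Zbp1 went from 0.130, 0.164, 0 and 0.124 CPM to 3.09, 0.598, 0.699 and 0.512 CPM (3.48 ± 0.78), and Psmb8 from 3.32, 5.34, 3.62 and 3.70 CPM to 58.8, 11.3, 8.58 and 9.14 CPM (2.47 ± 0.57). Replicate 1, rich in thymus markers, was highest for both. Without the pair rich in these markers the log2 fold changes in CKO lungs were 2.46 for Zbp1 and 1.29 for Psmb8, and those of Psmb9 and Tap1 were 0.852 and 0.722 in place of 1.51 and 1.21, each still called. Iigp1 went from 90.6, 87.9, 89.5 and 121 CPM to 18.7, 51.4, 30.7 and 30.1 CPM (-1.56 ± 0.21, adjusted p 4.55e-06). B2m went from 83.8, 87.4, 98.9 and 88.9 CPM to 96.6, 184, 111 and 113 CPM (0.51 ± 0.16), and Igtp from 4.43, 4.55, 4.25 and 5.50 CPM to 16.3, 7.67, 5.00 and 8.22 CPM (1.01 ± 0.30). Both were called, although their groups overlapped. The call of B2m was lost without P0 CKO replicate 2, with a log2 fold change of 0.261, and that of Igtp without P0 CKO replicate 1, with 0.587. The 5 members without a call were Stat2, Irf9, Ifit2, Irgm1 and Gbp7. Stat2 stood at 30.9, 40.2, 38.8 and 37.7 CPM at E16 and 44.3, 30.03, 31.9 and 44.0 CPM at P0 in CKO lungs (0.04 ± 0.13).

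The rise at birth did not hang on single libraries for most members. Only fits that leave out an E16 or P0 library of the genotype compared take data from the comparison itself. In controls 37 of the 38 calls, all but that of Stat2, were kept in each of 24 fits that left out 1 library. In CKO lungs 29 of the 36 were. Beside B2m and Igtp, the others were Nlrc5, whose call was lost without P0 CKO replicate 1, Oas3 (without E16 CKO replicate 3 or 4 or P0 CKO replicate 2), Irf1 (without E16 CKO replicate 1, P0 CKO replicate 1 or P0 control replicate 1), Parp9 (without E16 CKO replicate 1 or 3 or P0 CKO replicate 4) and Eif2ak2 (without E16 CKO replicate 1, 2 or 4 or P0 CKO replicate 1 or 4). Without the pair rich in thymus markers 37 control calls and 32 CKO calls were kept, Cxcl10 was not tested in either genotype, and Oas3, Irf1 and Eif2ak2 were no longer called in CKO lungs (adjusted p 0.0501, 0.0825 and 0.118).

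Markers of many cell types moved with the rise. In controls all 10 neutrophil markers tested rose, and their summed level went from 9.80 to 15.3 CPM at E16 to 226 to 258 CPM at P0, with Elane at 0 in every E16 control. Of 13 macrophage markers 12 rose, with sums of 122 to 142 CPM and 203 to 271 CPM. Plasmacytoid dendritic cells, the main makers of interferon alpha, had 3 of 4 tested markers higher, with sums of 0.792 to 1.41 CPM and 2.94 to 181 CPM, the top value being that of replicate 3. All 11 T cell and thymus markers tested rose, with sums of 3.49 to 4.36 CPM and 5.35 to 2173 CPM, and Cd8b1 at 0 in every E16 control. Of 13 endothelial markers 10 rose and 1 fell, with sums of 2188 to 2283 CPM and 2657 to 4467 CPM, and all 5 B cell markers rose from sums of 2.88 to 3.54 CPM to 6.23 to 11.4 CPM, with Ms4a1 at 0 in every E16 control. Sums of epithelial markers went from 4048 to 5641 CPM to 11550 to 18970 CPM, and those of erythroid markers from 5600 to 8020 CPM to 12100 to 27960 CPM. Mesenchymal sums overlapped between the stages, and cartilage sums fell, from 62.1 to 115 CPM to 25.1 to 55.3 CPM. Of all genes 25.3% were called higher in this comparison and 22.3% lower. The part of these cells in the rise was not tested.

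The interferon ligands themselves were hardly measured. Of 20 ligand genes, 12, among them Ifnb1, had 0 counts in all 24 libraries, and the most abundant was Ifng with 23 counts in all and at most 5 in a library. Receptors were present, and 3 of 6 rose at birth in controls, namely Ifngr1, with a log2 fold change of 1.29 ± 0.20, Ifngr2 (0.51 ± 0.11) and Il10rb (0.41 ± 0.13). Of 8 further kinases and factors of the pathway 5 rose, among them Irf8 (1.3 ± 0.22), a factor of myeloid cells, and Jak2 (0.87 ± 0.16). Of 65 other interferon-stimulated genes tested 50 rose and 3 fell, with a median of 1.46. They included Ifitm3 (1.80 ± 0.16) and Ifitm1 (3.41 ± 0.34), which block viral entry, and Ly6e (2.06 ± 0.19). Of 18 further class I genes 12 rose and 3 fell, with H2-D1 (2.08 ± 0.15) and H2-K1 (1.34 ± 0.13), heavy chains of class I, having the smallest p. Of 14 sensing genes 7 rose, such as the RNA sensor Ddx58 (0.69 ± 0.13), and Mb21d1, the DNA sensor cGAS, fell (-1.10 ± 0.27, adjusted p 0.00192). Of 11 genes that limit the response 3 rose, among them Socs3 (2.18 ± 0.25), an inhibitor of JAK signalling, and 3 fell. Beside these lists, 25.3% of all genes were called higher and 22.3% lower, and the counts of the limiting genes were near those shares.

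Members with and without the ISRE core rose at birth. The 18 members with an ISRE core had a median log2 fold change at birth in controls of 1.43, ranging from -0.21 to 6.55. The 14 members with a window but no core had a median of 2.06 (0.15 to 2.79), and the 9 without a window 1.68 (-1.34 to 3.31). These medians are descriptions without a test.

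From birth to P3 few members moved. This comparison shares its P0 libraries with the one before. In controls 7 were called, with 11.3% of all genes called, 4 higher (4.97% of all genes) and 3 lower (6.34%). Iigp1 rose, from 59.2, 41.7, 31.96 and 41.4 CPM at P0 to 91.3, 84.4, 99.0 and 95.8 CPM at P3 (1.09 ± 0.21, adjusted p 0.00318), and Ifit2 went from 24.3, 29.4, 28.6 and 32.04 CPM to 43.9, 42.7, 57.2 and 43.5 CPM (0.72 ± 0.16, adjusted p 0.00733). In both all P3 controls were above all P0 controls, and both calls were kept whichever library was left out. Gbp2 rose from 15.8, 11.8, 12.8 and 16.0 CPM to 23.7, 25.2, 23.8 and 23.0 CPM (0.77 ± 0.19, adjusted p 0.0155) and Rsad2 from 8.39, 12.8, 6.08 and 10.6 CPM to 26.4, 23.9, 10.5 and 20.1 CPM (1.10 ± 0.35, adjusted p 0.0449). The groups were apart for Gbp2, whose call was lost without P0 control replicate 2 (adjusted p 0.0554), and overlapped for Rsad2. The call of Rsad2 was lost in 13 of 24 fits that left out 1 library. These included each fit without a P0 control and those without P3 control replicate 1, 2 or 4. It was also lost without the pair rich in thymus markers (adjusted p 0.0808). Without that pair 3 more members were called higher at P3, Irf1 (log2 fold change 0.429, adjusted p 0.0358), Nlrc5 (1.49, adjusted p 0.0407) and Igtp (0.626, adjusted p 0.0219).

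The 3 members that fell after birth were Irf7, Oasl1 and Bst2. Irf7 went from 20.04, 13.5, 7.33 and 9.56 CPM to 8.29, 4.40, 5.08 and 7.06 CPM (-1.02 ± 0.28, adjusted p 0.0237), and Oasl1, which restrains the translation of Irf7 in mice, from 2.54, 1.40, 1.68 and 1.11 CPM to 0.622, 0.727, 0.305 and 0.811 CPM (-1.44 ± 0.42, adjusted p 0.0299). The groups overlapped for Irf7 and were apart for Oasl1. Bst2 went from 19.7, 16.0, 10.1 and 9.63 CPM to 9.01, 8.18, 7.55 and 9.19 CPM (-0.70 ± 0.20, adjusted p 0.0263). Its P0 values fell in a high and a low pair, and all P3 values were below them. The calls of Irf7 and Bst2 were lost without P0 control replicate 1 or 2 or P3 control replicate 2 or 3, and that of Oasl1 without any of these or P3 control replicate 1. Over all fits that left out 1 library the log2 fold changes stayed between -1.21 and -0.679 for Irf7, -0.847 and -0.457 for Bst2, and -1.60 and -1.15 for Oasl1.

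In CKO lungs 5 members rose from P0 to P3 (6.15% of all genes) and none fell (6.90%). Iigp1 went from 18.7, 51.4, 30.7 and 30.1 CPM to 89.3, 109, 97.8 and 88.4 CPM (1.53 ± 0.21, adjusted p 0.000206) and Ifit2 from 16.7, 24.9, 19.5 and 24.3 CPM to 47.8, 40.6, 43.1 and 37.9 CPM (0.97 ± 0.16, adjusted p 0.000751). As in controls, all P3 libraries were above all P0 libraries for both, and both calls were kept whichever library was left out. Gbp2 went from 7.84, 11.2, 8.19 and 13.5 CPM to 19.3, 16.2, 19.6 and 13.9 CPM (0.74 ± 0.19, adjusted p 0.0165), Gbp7 from 11.95, 19.8, 16.6 and 15.2 CPM to 30.4, 27.6, 30.1 and 21.9 CPM (0.77 ± 0.22, adjusted p 0.0234), and Eif2ak2 from 26.4, 42.9, 39.9 and 34.5 CPM to 49.8, 54.8, 52.2 and 55.01 CPM (0.54 ± 0.16, adjusted p 0.03). The groups were apart for all 3. Each of these calls was lost without P0 CKO replicate 1 or P3 CKO replicate 3. That of Gbp7 was also lost without P3 CKO replicate 2, and that of Eif2ak2 without P0 CKO replicate 4 or P3 CKO replicate 2 or 4. Without the pair rich in thymus markers, Gbp7 and Eif2ak2 were not called (adjusted p 0.0694 and 0.0858).

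The question of the study is how CKO lungs differ from control lungs at each stage. No member was called at a single stage, where 0.0181% of 16606 genes were called at E16, 0.0407% of 17198 at P0 and 0.0117% of 17113 at P3. Most members nevertheless had lower values in CKO lungs, 26 of 35 tested at E16, 39 of 40 at P0 and 34 of 39 at P3, where 51.9, 53.3 and 52.6% of all genes did. The median log2 fold changes of the members were -0.171, -0.433 and -0.302, and those of all genes -0.00935, -0.0246 and -0.0139. At an unadjusted p under 0.05 there were 2, 9 and 10 members, all lower in CKO lungs, while 3.96, 2.98 and 7.11% of all genes were lower at that level. In simulated data, for genes above a limit of mean counts, the edgeR fits recovered 28.4, 0 and 44.8% of 1.5-fold changes at E16, P0 and P3. Small changes could therefore be missed. With DESeq2 the members called at an adjusted p under 0.05 numbered 0, 0 and 1, and with limma-voom 0 at each stage. Leaving out P3 CKO replicate 1 gave 3 members at P3, all lower, among them Gbp2 and Bst2, when 1625 genes in all were called in place of 2. The low-count filter left out Cxcl10 at P0, and Cxcl10 and Oas3 at P3. Without the pair rich in thymus markers all 40 tested members were negative at P0, with a median of -0.455. Summed over the 41 members, controls ranged from 866 to 1066 CPM and CKO lungs from 650 to 835 CPM at P0, and from 964 to 999.6 CPM and 744 to 956 CPM at P3, without overlap, while at E16 ranges of 559 to 668 CPM and 507 to 617 CPM overlapped. Abundant members such as B2m carry these sums. The mean over members of log2(CPM + 0.5), which weights them equally, overlapped between controls and CKO lungs at each stage, with 3.35 to 3.77 against 2.95 to 3.46 at P0, 3.38 to 3.63 against 2.94 to 3.44 at P3 and 2.24 to 2.59 against 2.09 to 2.36 at E16.

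At E16 the members with the smallest p were Irf1, Ifit2, Oas2 and Gbp2. Irf1 stood at 37.7, 38.7, 39.1 and 42.4 CPM in controls and 29.3, 37.7, 34.5 and 34.3 CPM in CKO lungs (-0.22 ± 0.09, p 0.0376, adjusted p 0.432). It was the only one of the 35 tested members whose groups did not overlap with CKO lungs lower, as in 1.91% of genes. Ifit2 stood at 25.7, 24.7, 26.1 and 25.9 CPM and 19.2, 17.1, 16.6 and 27.3 CPM (-0.35 ± 0.15, adjusted p 0.46). Oas2 stood at 0.634, 0.963, 0.536 and 0.854 CPM and 0.586, 0.354, 0.314 and 0.622 CPM (-0.66 ± 0.33, adjusted p 0.514). Gbp2 stood at 6.42, 7.09, 7.28 and 7.95 CPM and 6.06, 4.17, 4.64 and 8.05 CPM (-0.33 ± 0.21, adjusted p 0.638). The groups overlapped for these 3, with CKO replicate 4 above all controls for Ifit2 and Gbp2. Ifit1, Oas3, Oasl1, Cxcl10, Zbp1 and Nlrc5 were too low to test at E16. Among them Ifit1 was lower in every CKO lung, at 0.0977, 0.0817, 0.0349 and 0.0622 CPM against 0.132, 0.172, 0.168 and 0.456 CPM. These CKO values rest on 1 to 3 counts a library. Oasl1, Zbp1 and Nlrc5 were lower on average in CKO lungs as well. Oas3 and Cxcl10 were higher on average, at 0.115 against 0.0596 CPM and 0.0545 against 0.0142 CPM, from a few counts. Control replicate 4 held the highest value of its group in 26 of 41 members, and without it the median log2 fold change at E16 was -0.0334. Xist passed 100 CPM in 1 of 4 controls and 4 of 4 CKO lungs at E16, and with that as a covariate the median was -0.391.

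At P0 Gbp7 had the smallest p, with 34.5, 23.6, 27.3 and 21.4 CPM in controls and 11.95, 19.8, 16.6 and 15.2 CPM in CKO lungs (-0.75 ± 0.22, p 0.00765, adjusted p 0.453). All CKO lungs were below all controls. Lgals3bp stood at 49.5, 48.0, 37.2 and 46.1 CPM and 38.0, 28.0, 24.7 and 34.9 CPM (-0.52 ± 0.18, adjusted p 0.626), and Parp9 at 26.3, 29.4, 33.2 and 27.4 CPM and 19.9, 21.2, 21.4 and 23.6 CPM (-0.43 ± 0.16, adjusted p 0.656). Parp9 did not overlap between the groups and Lgals3bp did, by 1 library. Bst2 stood at 19.7, 16.0, 10.1 and 9.63 CPM and 8.53, 9.81, 7.16 and 8.08 CPM (-0.72 ± 0.27, adjusted p 0.683), with overlap. CKO lungs were lower without overlap in 5 of 40 tested members, Ifit3, Gbp7, Ifih1, Parp9 and Trim30a, as in 2.05% of genes, and in none were they higher (2.52% of genes). The spread among P0 libraries was the widest of the stages, with a biological coefficient of variation over all genes of 0.389, beside 0.215 at E16 and 0.188 at P3.

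At P3 Gbp2 stood at 23.7, 25.2, 23.8 and 23.0 CPM in controls and 19.3, 16.2, 19.6 and 13.9 CPM in CKO lungs (-0.49 ± 0.12, p 0.00204, adjusted p 0.168), and with DESeq2 it was called, with a log2 fold change of -0.48 and an adjusted p of 0.0146. Bst2 stood at 9.01, 8.18, 7.55 and 9.19 CPM and 7.54, 5.01, 6.47 and 6.08 CPM (-0.45 ± 0.15, adjusted p 0.228). Neither overlapped between the genotypes. Parp14 stood at 39.2, 40.2, 42.8 and 42.1 CPM and 34.7, 37.9, 35.1 and 27.0 CPM (-0.30 ± 0.11, adjusted p 0.235), and Ifit3 at 6.18, 7.52, 6.30 and 7.50 CPM and 5.30, 4.50, 6.12 and 4.52 CPM (-0.44 ± 0.16, adjusted p 0.235). These were apart as well, as were Xaf1 and Igtp, which makes 6 of 39 tested members with CKO lungs lower, as in 3.32% of genes. Igtp stood at 12.2, 11.9, 11.99 and 13.2 CPM and 11.1, 11.1, 8.91 and 7.24 CPM (-0.38 ± 0.15, adjusted p 0.265). CKO replicate 4 held the lowest value of its group in 33 of the 41 members, and without it the median log2 fold change at P3 was -0.176.

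**Figure D4:**
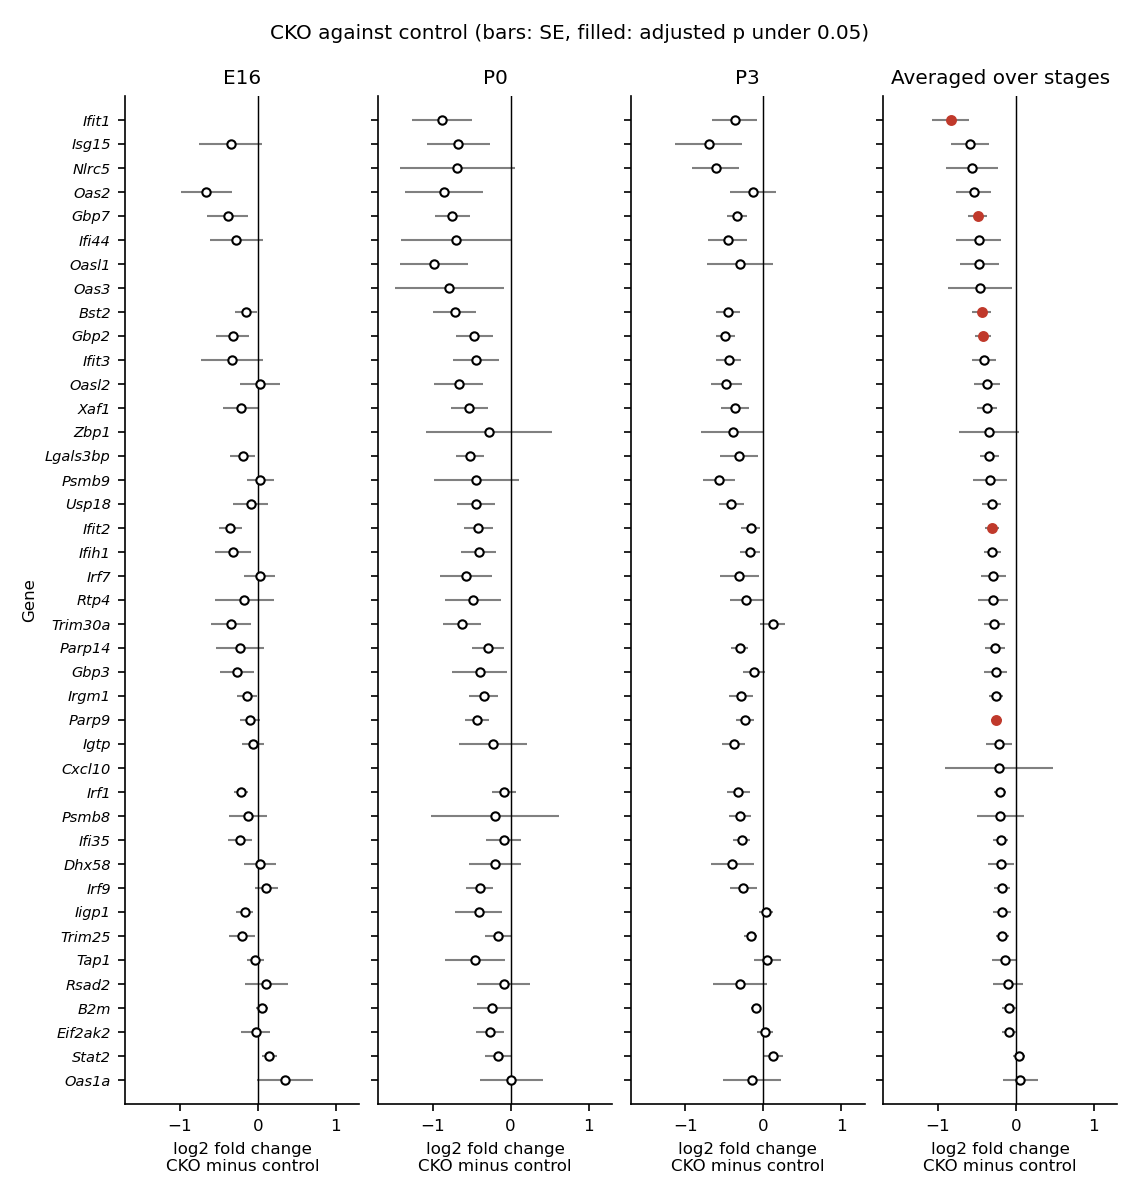
Log2 fold change of CKO against control for each member at E16, P0 and P3, each fitted alone on 8 libraries, and averaged over the stages on 24 libraries, with SE bars and filled points for an adjusted p under 0.05. Most points lie left of 0 in all panels, none is filled at a single stage, and 6 are filled in the average.

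Averaged over the stages, 6 of the 41 members were lower in CKO lungs and none higher, while 3.00% of all 18415 genes were called lower, 5.38% higher and 8.38% in either direction. The count depended on the fit. With the identifier number of the libraries as a block 17 members were called, and calls over all genes rose as well. There were 11 members with the sex covariate, 10 with DESeq2 and 3 without the low-count filter, fits whose totals over all genes are not reported here. This single genotype effect over 24 libraries was -0.42 ± 0.11 for Gbp2, -0.49 ± 0.12 for Gbp7, -0.44 ± 0.12 for Bst2, -0.25 ± 0.07 for Parp9, -0.84 ± 0.24 for Ifit1 and -0.31 ± 0.09 for Ifit2 on the log2 scale. The adjusted p were 0.0155, 0.0157, 0.0227, 0.0288, 0.0303 and 0.0333. Of the 41 log2 fold changes 39 were negative, as for 53.9% of all genes, and the median was -0.288 beside -0.0199. The 2 positive values were those of Stat2 (0.04 ± 0.08) and Oas1a (0.06 ± 0.22). At an unadjusted p under 0.05 there were 18 members, all lower, with 10.2% of all genes lower at that level.

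Of the called members, 2 are guanylate-binding GTPases, 2 are Ifit genes, Bst2 acts at the cell surface, and Parp9 works in a complex that amplifies interferon signals. Gbp2 spans 142620602 to 142638008 and Gbp7 142530342 to 142550149 on chromosome 3 (mm10), and Ifit1 and Ifit2 both lie on chromosome 19. Of the members not called, Gbp3 lies between Gbp2 and Gbp7, and Ifit3 between Ifit1 and Ifit2. Gbp2, Gbp7 and Bst2 were called under all 34 alternatives of processing and left-out libraries, Parp9 under 31, Ifit1 under 28 and Ifit2 under 23. Ifit1 was among the lowest members, with E16 CKO means of 0.0691 CPM, so counting error weighs on it, and its call was lost without both P0 libraries rich in thymus markers (adjusted p 0.0655). At P3 Ifit1 stood at 2.14, 1.42, 1.76 and 2.57 CPM in controls and 1.46, 1.92, 1.95 and 0.831 CPM in CKO lungs. The groups overlapped there and at P0. Bst2 stood at 4.73, 5.09, 5.73 and 5.36 CPM and 4.17, 4.50, 5.58 and 4.57 CPM at E16, with overlap as well. Gbp7 lay in E16 controls at 13.2, 11.1, 15.9 and 21.3 CPM and in E16 CKO lungs at 14.9, 10.6, 7.63 and 13.7 CPM, and at P3 at 32.8, 29.7, 36.2 and 38.9 CPM and 30.4, 27.6, 30.1 and 21.9 CPM. These groups overlapped at both stages, and CKO means were lower at each. Parp9 lay at 16.2, 16.1, 19.4 and 20.8 CPM and 15.3, 19.1, 15.3 and 17.9 CPM at E16, and at 27.9, 28.1, 26.8 and 29.3 CPM and 27.0, 24.9, 25.5 and 18.9 CPM at P3, again with overlap.

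The other roles had no call in the average. The class I genes differed least, with B2m at 157 to 172 CPM in P3 controls and 144 to 167 CPM in P3 CKO lungs and an averaged log2 fold change of -0.09 ± 0.09. At P3 Psmb8 stood at 12.9, 14.7, 11.5 and 13.9 CPM in controls and 11.8, 10.8, 12.1 and 8.67 CPM in CKO lungs, with overlap. Psmb8, Psmb9 and Tap1 had -0.20 ± 0.30, -0.33 ± 0.22 and -0.14 ± 0.16. Isg15 was at 3.32, 1.75, 1.36 and 2.84 CPM in P3 controls and 2.20, 1.43, 1.69 and 0.432 CPM in P3 CKO lungs, and averaged -0.59 ± 0.25 (adjusted p 0.154). Its groups overlapped at each stage. Irf7 was at 8.29, 4.40, 5.08 and 7.06 CPM and 6.58, 5.58, 4.89 and 3.22 CPM at P3 and averaged -0.29 ± 0.16 (adjusted p 0.313). Cxcl10 was at 0.138, 0.436, 0.237 and 0.203 CPM and 0.249, 0.115, 0.117 and 0.166 CPM at P3, from 4 to 12 counts a library, and averaged -0.21 ± 0.69. Stat2 was at 35.8, 30.6, 36.7 and 33.3 CPM and 42.4, 43.3, 34.9 and 30.2 CPM. The genotypes overlapped at P3 for Irf7, Cxcl10 and Stat2.

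The difference between the genotypes was not shown to change with stage. For P0 against E16 that fit recovered 7.46% of 1.5-fold and 35.8% of 2-fold changes in simulated data, for genes above the count limit. None of the 18415 genes, and so none of the members, was called for a difference of the genotype effect between any 2 stages by edgeR (0.0% of all genes), and DESeq2 called 17 genes for P0 against E16, 2 for P3 against P0 and 8 for P3 against E16, none of them a member. With limma-voom no gene was called either. At an unadjusted p under 0.05 there were 0, 1 and 1 members, with 2.80, 2.30 and 1.15% of all genes. Irf9 had the smallest p for P0 against E16, at -0.48 ± 0.25 (p 0.0615). It stood at 47.3, 37.2, 32.8 and 37.6 CPM in P0 controls and 33.1, 29.6, 24.9 and 29.7 CPM in P0 CKO lungs, and at 25.0, 21.2, 25.3 and 27.8 CPM and 19.6, 31.5, 28.1 and 28.0 CPM at E16. The genotypes overlapped at both stages. Bst2 (-0.54 ± 0.28), Parp9 (-0.30 ± 0.17) and Oasl2 (-0.67 ± 0.39) followed. For P3 against P0 Trim30a had a difference of 0.73 ± 0.31 (p 0.0274), with 17.95, 11.7, 12.8 and 11.8 CPM and 6.81, 10.6, 7.46 and 10.4 CPM at P0 and 14.95, 13.3, 11.6 and 10.5 CPM and 16.7, 14.6, 13.7 and 10.2 CPM at P3. It was lower in all CKO lungs at P0 and overlapped at P3. Iigp1 (0.44 ± 0.29), Stat2 (0.28 ± 0.19) and Gbp7 (0.40 ± 0.30) came next. For P3 against E16 the smallest p belonged to Ifit1 (1.33 ± 0.60, p 0.0368), Oas3 (-1.86 ± 1.06), Trim30a (0.48 ± 0.31) and Irf9 (-0.35 ± 0.25). Every adjusted p here was 1.

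Libraries carry identifiers whose number before the hyphen is shared within sets, and the meaning of that number is not stated. Within all 9 sets that held both genotypes the median member was lower in CKO lungs, on the log2(CPM + 0.5) scale. At E16 the medians were -0.169, -0.0696 and -0.162 in the sets 1023, 829 and 919, with that of set 829 smaller in size than the median of all its genes, -0.0942. In these sets 27, 21 and 23 of 35 members were lower, beside 48.0, 60.6 and 48.6% of all genes. At P0 they were -0.284, -0.598, -0.264 and -0.33 in the sets 1022, 9468, 9605 and 9903, each of 1 control and 1 CKO lung, with 36, 38, 30 and 34 of 40 members lower, beside 53.3, 49.5, 52.0 and 51.6% of all genes. Set 9605 is the pair rich in thymus markers. At P3 the median was -0.118 in set 23, of 2 controls and 3 CKO lungs, with 30 of 39 members lower, and -0.553 with 38 of 39 lower in set 9902, whose single CKO lung is replicate 4, beside 49.7 and 51.3% of all genes. P3 CKO replicate 4 had the lowest sum of endothelial markers among the P3 CKO lungs, 2609 CPM, where the highest was 4213 CPM. Its part in the lower values was not tested.

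**Figure D5:**
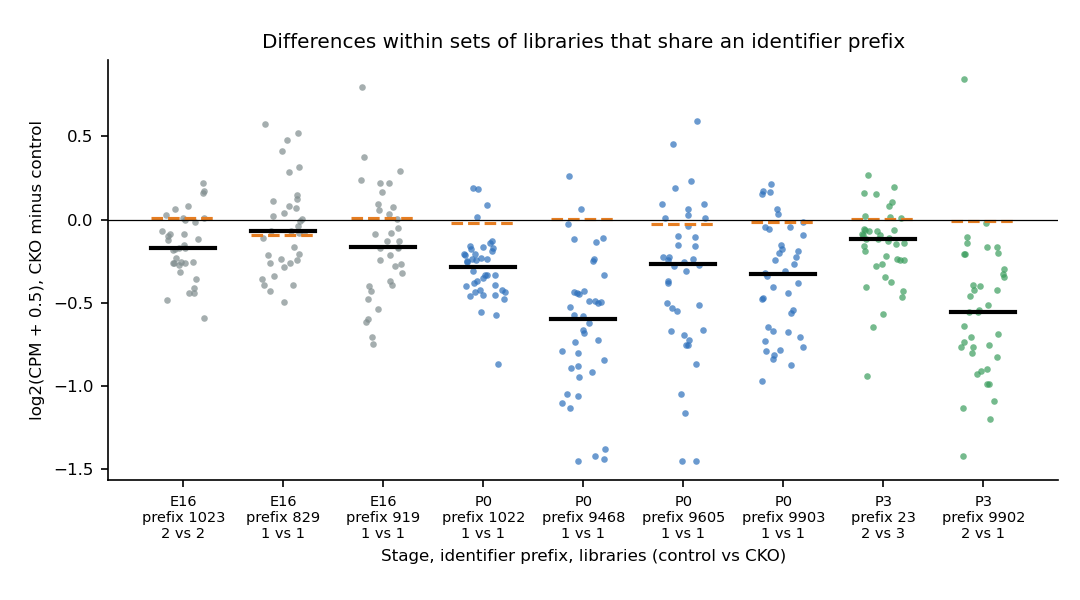
Log2(CPM + 0.5) in CKO minus control for each tested member (points), within sets of libraries that share the number before the hyphen in their identifier, with the median of the members (black) and of all genes (orange, dashed). The black line lies below 0 in all 9 sets and furthest below in set 9468 at P0 and set 9902 at P3, and 1 control and 1 CKO lung make up each P0 set.

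Some members were highest at P0 in both libraries of 1 set. Both libraries of set 9903 stood above all other P0 libraries, of either genotype, for 7 of 41 members, as for 11.5% of genes. These were Oas1a, Ifi44, Dhx58, Rtp4, Parp14, B2m and Iigp1. Both libraries of set 9605 stood above all others for Cxcl10, Psmb8, Psmb9, Tap1, Zbp1, Nlrc5 and Igtp, 7 members as well, beside 11.3% of genes. Sets 9468 and 1022 had no such member, beside 1.94 and 4.94% of genes. Nlrc5 averaged 0.253, 1.35 and 2.18 CPM in controls at E16, P0 and P3 and 0.194, 0.844 and 1.43 CPM in CKO lungs, with P0 values of 0.326 to 3.08 CPM in controls and 0.239 to 1.77 CPM in CKO lungs.

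Markers of endothelium and neutrophils had lower values in CKO lungs beside the members, although none was called at a single stage. All 13 endothelial markers had negative log2 fold changes at each stage, with medians of -0.12, -0.363 and -0.347 at E16, P0 and P3, and 2 of 13, Tek and Cldn5, were called lower in the average. All neutrophil markers tested were negative at P0 (10 of 10, median -0.447) and at P3 (9 of 9, median -0.955), and Ngp, Camp, Ltf and Ly6g were called lower in the average. The sums of neutrophil markers were 226 to 258 CPM in P0 controls and 116 to 213 CPM in P0 CKO lungs, and 180.1 to 348 CPM and 133 to 168 CPM at P3, without overlap. Macrophage markers had a positive median at P0, 0.573, with sums of 203 to 271 CPM in controls and 270.1 to 377 CPM in CKO lungs. Other marker lists moved too. In the average all 10 epithelial markers (median -0.202), all 5 B cell markers (-0.647) and 10 of 11 T cell and thymus markers (-0.343) were negative, none of them called. Of 6 mesenchymal markers 1 was called higher and 2 lower in the average, with log2 fold changes from -0.387 to 0.78. The B cell median was -0.987 at P3, and that of plasmacytoid dendritic cell markers -0.661 at P0 and -0.516 at P3. Cartilage markers had a median of 2.56 at P0 over the 4 tested, where their sums were 25.1 to 55.3 CPM in controls and 17.6 to 334 CPM in CKO lungs, with overlap. Of all genes 3.00% were called lower and 5.38% higher in the average. The part of these cells in the lower member values was not tested.

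Most other interferon-stimulated genes were lower in CKO lungs by their averaged values as well. Of 65 other interferon-stimulated genes tested, 59 had negative averaged log2 fold changes, with a median of -0.266, and 8 were called lower. Among these were Nmi, the partner of Ifi35 (-0.37 ± 0.08, adjusted p 0.00498), the GTPases Gbp4, Gbp9 and Gbp10 (-0.62 ± 0.19, -0.41 ± 0.10 and -0.93 ± 0.28), Uba7, the enzyme that activates Isg15 (-0.35 ± 0.10), Ifitm1 (-0.65 ± 0.18), and Herc6, the ligase that attaches Isg15 in mice (-0.31 ± 0.09). Of 14 sensing genes 4 were called lower, Mb21d1 (-0.63 ± 0.16), Ikbke (-0.49 ± 0.14), Tlr3 (-0.33 ± 0.10) and Ddx58 (-0.23 ± 0.07). None of 6 receptors and none of 8 kinases and factors was called, with medians of -0.125 and 0.00934. At an unadjusted p under 0.05, in either direction, there were 2 and 3, beside 4047 of all 18415 genes. Among the kinases and factors Jak2 had the smallest p, at 0.25 ± 0.09 (adjusted p 0.0832). Of 11 limiting genes Rnaseh2a was called higher (0.33 ± 0.08), and of 18 further class I genes Erap1, which trims peptides, was called lower (-0.28 ± 0.06). Of all genes 3.00% were called lower and 5.38% higher in the average.

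At single stages no gene of these lists was called. Among other interferon-stimulated genes 41 of 56 tested were negative at E16, 56 of 64 at P0 and 55 of 62 at P3, with medians of -0.152, -0.368 and -0.298. At an unadjusted p under 0.05, in either direction, there were 5, 9 and 24. Of all genes tested 1749 of 16606, 1107 of 17198 and 2634 of 17113 passed that level. Examples with a low p were Gbp4 at E16 (-0.39 ± 0.11, adjusted p 0.326), Gbp9 at P0 (-0.57 ± 0.16, adjusted p 0.415) and Sp140, a nuclear body protein, at P3 (-0.52 ± 0.14, adjusted p 0.171). Among sensing genes the smallest p belonged to Ikbke, a kinase upstream of interferon genes, at E16 (-0.64 ± 0.20), to Mb21d1 at P0 (-1.12 ± 0.35) and to Tlr3, a receptor of double-stranded RNA, at P3 (-0.36 ± 0.11). Irf8 had -0.51 ± 0.17 at E16, and the receptor gene Il10rb -0.27 ± 0.10. Rnaseh2a, a subunit of the nuclease that clears RNA from DNA, had positive values of 0.37 ± 0.11, 0.35 ± 0.21 and 0.26 ± 0.12 at the 3 stages. Of the class I list, Psme2, a proteasome activator, had 0.36 ± 0.10 at E16, and Erap1 had -0.31 ± 0.15 at P0 and -0.31 ± 0.09 at P3.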

How the data were processed

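Bulk RNA-seq of whole mouse lung was deposited as one table of expected counts per gene for 24 libraries, which the authors named as RSEM output. RSEM 1.3.0, STAR 2.5.3a, edgeR and mm10 are named, per the submitters' processing notes, without their roles. RSEM divides reads shared by near-identical genes by estimate. The deposited values were whole numbers already, so that rounding changed none. The table held 51912 genes, with 102 duplicated symbols, none of them a member. Groups came from the titles, which call the libraries biological replicates. P-values measure the spread between these lungs, and counting intervals cover counting error only.

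CKO and control lungs were compared within each stage (8 libraries), averaged over stages and between stages (24 libraries) with edgeR 4.0.16 in R 4.3.3 (filterByExpr, TMM scaling, robust quasi-likelihood test, Benjamini-Hochberg adjustment over all genes tested, call at an adjusted p under 0.05). CPM used library totals times TMM factors, and levels per kb used merged exon lengths. DESeq2 1.42.0, limma-voom (limma 3.58.1), other scalings and filters, a sex covariate, blocks by replicate number and by identifier number, and leaving out each library were alternatives. The fits were tested on simulated data with added changes. Changes were added only to genes above a limit of mean counts, which low members such as Cxcl10 and Oas3 did not reach. In the averaged fit Ifit1 was under that limit as well. Recovery was not measured for genes under it. Of 1.5-fold and 2-fold changes in CKO against control, 28.4 and 76.1% were recovered at E16, 0 and 20.9% at P0 and 44.8 and 79.1% at P3. The averaged fit recovered 67.2 and 94%. The 41 members, the pathway and marker lists and the tests were chosen with earlier results of these data known. Every member is named with its levels, and values in every library are given for 9 members chosen by role and for those with the smallest p or, between stages, the largest called changes. Promoters came from RefSeq (GRCm38.p6), read by Python 3.11.15. Same-numbered control and CKO lungs did not deviate together at every stage, so the numbers were not taken as pairs. For lungs that share an identifier number, deviations from the group mean correlated at 0.00295 to 0.668 at P0, where the others had -0.456 to 0.237. At E16 those correlations were -0.176 to 0.443, and at P3 -0.173 to 0.192. The main fits did not use the identifier number. Some genes of the pathway lists are not reported here by name.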

Additional observations from a re-analysis of the deposited data

Results flagged for a closer look

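In each group of 4, the highest or lowest library was set against the others by Dixon's test at its 95% critical value. Of 246 tests, 19 passed, where chance alone gives about 12.3 (1 in 20).

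E16 control replicate 4 stood apart for 4 members. It had 0.456 CPM of Ifit1 (the others 0.132 to 0.172), 4.13 CPM of Rtp4 (1.85 to 2.08), 20.3 CPM of Parp14 (8.29 to 9.89) and 0.057 CPM of Cxcl10, which was at 0 in the others and here had 2 counts.

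At P0 the 2 libraries rich in thymus markers stood apart for class I genes, Cxcl10 and Zbp1. Psmb8 was at 63.2 CPM in control replicate 3 (11.4 to 14.5 in the others) and 58.8 CPM in CKO replicate 1 (8.58 to 11.3). Psmb9 was at 12.9 CPM (3.84 to 4.63) and 9.9 CPM (2.46 to 3.31) in the same libraries. Cxcl10 was at 6.54 CPM in control replicate 3 (0.0653 to 0.274), and Zbp1 at 3.09 CPM in CKO replicate 1 (0.511 to 0.699).

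P0 CKO replicate 2 had 12.9 CPM of Ifi44 (1.73 to 2.65) and 6.75 CPM of Dhx58 (2.69 to 3.38). P0 control replicate 1, from the set with the same identifier number, had 208.0 CPM of B2m (126 to 131). P0 control replicate 4 had 5.16 CPM of Ifit3 (4.83 to 4.88), a gap that is small in size.

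At P3, CKO replicate 4 was low for Ifi44, with 1.33 CPM (2.88 to 3.09), and for Xaf1, with 7.08 CPM (12.7 to 13.1). Control replicate 3 had 57.2 CPM of Ifit2 (42.7 to 43.9), and control replicate 2 had 30.7 CPM of Irf9 (32.6 to 32.9). In E16 CKO lungs, replicate 4 had 121 CPM of Iigp1 (87.9 to 90.6).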

How the results depend on the processing

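No member was called at a single stage under the alternatives run, except at P3, where DESeq2 called 1 (Gbp2) and leaving out CKO replicate 1 gave 3 (range 0 to 3). The averaged genotype effect called 6 members, against 3 without the low-count filter, 10 with DESeq2, 11 with the sex covariate, 17 with a block for the identifier number, and 4 to 7 with 1 library left out. With the replicate number as a block, 4 members were called, all among the 6. The correlation of same-numbered libraries ran from -0.456 to 0.668 at P0 and from -0.406 to -0.0377 at E16, so the number does not pair the lungs. The value of 0.668 belongs to replicate 4 of the P0 control and CKO lungs, which share an identifier number too. The member median at E16 was -0.391 with the sex covariate, and ranged from -0.244 to -0.0334 with 1 library left out, the latter without control replicate 4. For P0 against E16 in CKO lungs, limma-voom gave a median of 1.24, and leaving out 1 library 1.19 to 1.54, the former without P0 CKO replicate 2. For P3 against P0, leaving out 1 library gave 2 to 8 calls and medians of -0.301 to -0.0655 in controls (7 calls and -0.279 with all libraries), and 2 to 7 calls in CKO lungs (5 with all). Without both P0 libraries rich in thymus markers, an alternative chosen after seeing the data, the control median was -0.0998, and in CKO lungs 3 members were called and the median reversed, from -0.0515 to 0.127; the cause was not tested. Of the 6 averaged calls, Parp9 was lost without the filter, under the replicate block and without E16 control replicate 4 (adjusted p 0.0725, 0.0709 and 0.0531). Ifit1 was lost without the filter, under the replicate block and without E16 CKO 2, P3 control 4 or P3 CKO 4 (0.0512 to 0.0738), and Ifit2 in 11 alternatives (up to 0.0654). At single stages counts over all genes moved more than those of members. Genes called numbered 3 at E16, but 280 with DESeq2, 188 without CKO replicate 4 and 10 without control replicate 4. At P0 they numbered 7, but 2 under the replicate block, 196 with DESeq2 and 264 in the fit of 24 libraries. At P3 they numbered 2, but 0 under the replicate block, 579 with DESeq2, 286 with the sex covariate, 1625 without CKO replicate 1 and 14 in the fit of 24 libraries. In the average they numbered 1544, but 2871 with the block for the identifier number. Depth limits the lowest members, such as Cxcl10 and Oas3, at library totals of 27.02 to 36.35 M counts.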
